A study of Mus musculus with 9 samples.

Results

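The genes described here are 10 genes of the YAP/TAZ pathway measured in C2C12 mouse myoblasts: the coactivators Yap1 and Wwtr1 (which encodes TAZ), the transcription factor Tead1, and 7 genes known as their targets, Ccn1, Ccn2, Ankrd1, Amotl2, Ajuba, Axl and Lats2. They were chosen by name, for their known role in the pathway, with no measured value in the rule. Earlier results of these data were known when the choice was made. They are 10 of the 19938 genes named on the arrays, and all 10 were among the 9864 genes bright enough to be tested. Each was measured by 1 probe set except Tead1, which has 2. C2C12 is an immortal mouse line of muscle precursor cells. The cells received an siRNA against Cugbp1 (current symbol Celf1), an siRNA against Mbnl1 or a control siRNA. Both targets are RNA-binding proteins of muscle: CELF1 is known to bind GU-rich RNA and to speed the decay of many short-lived mRNAs, and MBNL1 is known for its control of splicing. In every arm 5 ug/ml actinomycin D was then added to block transcription, and RNA was taken at 0, 2.5 and 5 h. Each siRNA and time had 1 array, 9 in all, so each siRNA has 3 arrays and each time has 3 arrays. All groups share this cell line and the drug. Replicate cultures are not labelled, so a p-value sets a difference against how unevenly the siRNAs behaved across the times, not against the spread between cultures, and so few arrays give limited precision.

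YAP and TAZ are the nuclear effectors of the Hippo pathway. When the kinases LATS1 and LATS2 are inactive, YAP and TAZ enter the nucleus and bind TEAD factors, which recognise the DNA word GGAATG at promoters and enhancers. In myoblasts YAP is known to favour proliferation over differentiation. Several of the target genes encode matricellular proteins (Ccn1 and Ccn2), and others encode proteins that act back on the pathway (Lats2, Amotl2 and Ajuba).

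The sequences around the start sites were read for DNA words that these genes share. The 7 targets were chosen as known targets of YAP/TAZ, so a TEAD word in their windows may be built into that choice. RefSeq windows on build GRCm38.p6, from 250 bases before to 50 after a start site, were held for 8 of the 10 genes, in 10 windows; Ccn2 and Tead1 were not among them. GGAATG was found on one strand or the other in 9 of the 10 windows and for 8 of the 8 genes, against 14.7% of all 32851 mouse windows and 13.6% of the 7987 tested genes with a window. The longer word GGAATGT was found for 5 of the 8 genes, against 3.27% of the tested genes. The AP-1 word TGANTCA (searched with G or C as its middle base N) was found for 0 of the 8, against 4.33% of the tested genes. The CArG box, the word bound by SRF, was found for 0 of the 8, against 1.67% of the tested genes. At shares this low, 0 of 8 is no result about these genes. Both strands were searched for each. A match is a description of the letters in a window and not a binding site. Shown are the windows of 4 of the 5 targets that fell most after transcription was blocked (the other one, Ccn2, had no window): Ccn1 (chr3:145649936-145650235, minus strand), Ankrd1 (chr19:36119795-36120094, minus strand), Amotl2 (chr9:102717554-102717853, plus strand) and Ajuba (chr14:54577612-54577911, minus strand). They run 5′ to 3′ on the strand of the gene, and capitals mark GGAATG or its reverse complement CATTCC.
Ccn1: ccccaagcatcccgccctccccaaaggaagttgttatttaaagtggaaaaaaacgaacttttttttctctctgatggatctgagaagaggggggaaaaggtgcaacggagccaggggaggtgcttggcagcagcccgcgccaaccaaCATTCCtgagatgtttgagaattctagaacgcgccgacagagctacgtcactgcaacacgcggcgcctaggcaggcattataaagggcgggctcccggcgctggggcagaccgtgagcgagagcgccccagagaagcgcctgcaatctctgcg
Ankrd1: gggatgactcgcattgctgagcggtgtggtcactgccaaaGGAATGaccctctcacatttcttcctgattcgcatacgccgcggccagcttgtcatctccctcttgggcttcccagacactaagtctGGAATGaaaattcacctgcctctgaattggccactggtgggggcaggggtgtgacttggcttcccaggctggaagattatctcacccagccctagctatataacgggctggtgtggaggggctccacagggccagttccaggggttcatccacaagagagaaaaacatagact
Amotl2: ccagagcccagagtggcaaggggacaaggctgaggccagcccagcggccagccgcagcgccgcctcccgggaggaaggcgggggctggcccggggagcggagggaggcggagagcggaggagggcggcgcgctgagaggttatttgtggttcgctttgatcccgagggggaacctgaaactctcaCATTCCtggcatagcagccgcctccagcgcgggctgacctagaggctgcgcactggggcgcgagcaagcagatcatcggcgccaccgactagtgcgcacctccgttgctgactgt
Ajuba: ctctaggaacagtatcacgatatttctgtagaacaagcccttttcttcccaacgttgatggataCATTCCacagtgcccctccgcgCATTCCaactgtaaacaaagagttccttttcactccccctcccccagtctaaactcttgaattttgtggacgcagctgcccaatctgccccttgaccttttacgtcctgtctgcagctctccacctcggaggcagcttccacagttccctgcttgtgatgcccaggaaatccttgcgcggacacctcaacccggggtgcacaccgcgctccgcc
Counted from 0 at the start site, the match in Ccn1 began at −103 and that in Amotl2 at −65. Ankrd1 held 2 matches, at −210 and −123, and so did Ajuba, at −186 and −164. In the windows not printed, Axl had its match at −233, Yap1 at −141 and Lats2 at 4, while a second start site of Lats2 had none. The 2 overlapping windows of Wwtr1 shared 1 match. The word was thus found at the start sites of the factor genes Yap1 and Wwtr1 as well as at those of the targets.

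**Figure D1:**
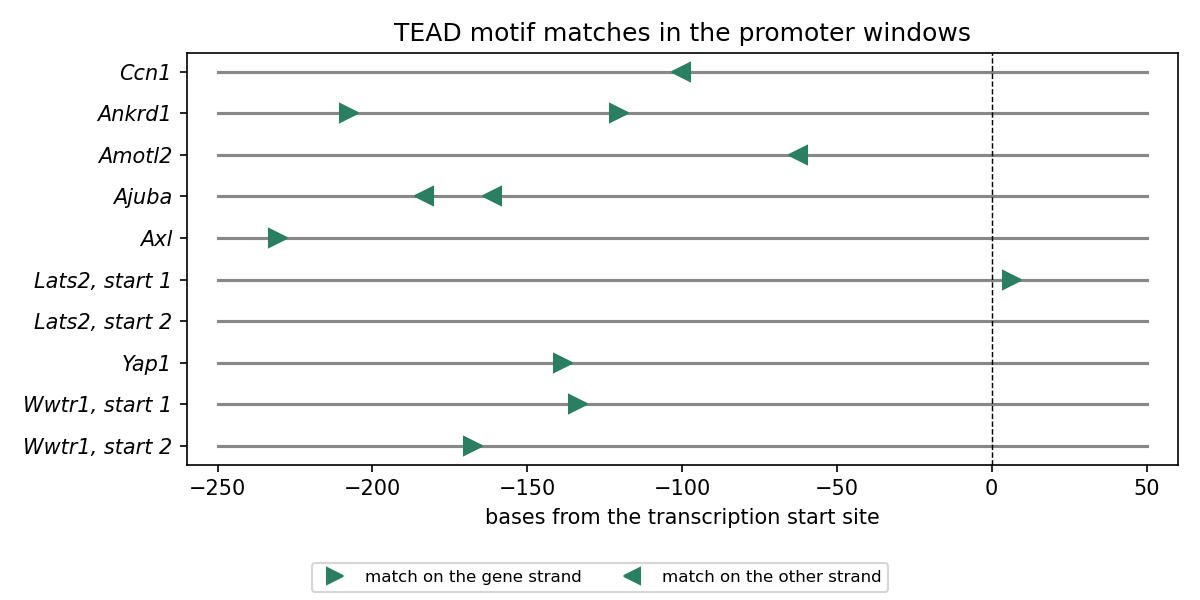
Position of each match to GGAATG in the 10 promoter windows of 8 genes. The horizontal axis is the distance in bases from the start site (dashed line), each grey line is a window, and triangles point along the strand of the match. Of the 10 windows, 9 hold a match, and it lies before the start site in all of these except the first start of Lats2.

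The arrays were alike overall: their median intensity lay between 104.92 and 113.01, and the correlation of log2 values between 2 arrays between 0.980 and 0.995. Both siRNA targets were low in the cells labelled with their siRNA. Celf1 was 4.08-fold lower under Cugbp1 siRNA than under control siRNA (log2 difference −2.03 ± 0.09, SE, adjusted p = 3.01e-05), and Mbnl1 was 5.39-fold lower under Mbnl1 siRNA (−2.43 ± 0.09, adjusted p = 1.63e-06). Celf1 was lower under Mbnl1 siRNA as well (−0.59 ± 0.09, adjusted p = 0.000931). All 4 myoblast markers passed the intensity filter of 167.1, and their summed intensity ranged from 13519 to 14740 under Cugbp1 siRNA, from 11971 to 12550 under Mbnl1 siRNA and from 13679 to 14490 under control siRNA. Of 8 markers of other cell types 2 passed it, the leukocyte marker Cd68 and the epithelial cadherin gene Cdh1; Ptprc, Pecam1, Cdh5, Epcam, Adipoq and Plin1 did not. The sum over these 8 ranged from 908 to 1023 under Cugbp1 siRNA, from 1488 to 1756 under Mbnl1 siRNA and from 872 to 978 under control siRNA.

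After transcription was blocked, the mRNAs of 5 target genes fell within hours, the 3 factor genes did not pass the test, and Lats2 and Axl shifted little. At 5 h Ccn1 had fallen 7.33-fold, Ajuba 3.28-fold, Ccn2 2.74-fold and Ankrd1 2.6-fold against 0 h, and Amotl2 had fallen by 0.84 on the log2 scale. All values below are RMA intensities, which are relative: RMA brings the arrays to 1 common distribution, so a change is a change against the other transcripts of the array. In such bulk RNA, fewer cells with an mRNA and less of it per cell cannot be told apart.

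Ccn1 encodes a secreted protein of the matrix that binds integrins. At 0, 2.5 and 5 h its intensity was 2341, 349.9 and 382.7 under Cugbp1 siRNA. Under Mbnl1 siRNA it was 4013, 783.1 and 605.4, and under control siRNA 3554, 463.2 and 365.4. Each 2.5 h and 5 h value lay far below each 0 h value, with no overlap. The change was −2.68 ± 0.13 at 2.5 h (log2, SE, 3 arrays per time, adjusted p = 3.87e-06) and −2.87 ± 0.13 at 5 h (adjusted p = 9.74e-07), the 7th largest fall of the 9864 genes at 5 h. The difference between 5 h and 2.5 h was −0.19 and did not pass (adjusted p = 0.329), but passed at −0.31 (adjusted p = 0.0479) with arrays scaled to equal ribosomal protein medians. Read as exponential loss, the first 2.5 h give a half-life of 0.91 h under Cugbp1 siRNA, 1.06 h under Mbnl1 siRNA and 0.85 h under control siRNA. Each half-life rests on 1 array per time, and their differences were not tested.

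Ccn2, the relative known as CTGF and tied to fibrosis, fell by 2.5 h and again by 5 h. Its intensity at 0, 2.5 and 5 h was 696.0, 333.9 and 304.4 under Cugbp1 siRNA. It was 1273, 651.7 and 446.1 under Mbnl1 siRNA and 1125, 565.4 and 355.1 under control siRNA. Within each siRNA the values went down in order of time. No later value reached a 0 h value, though the Mbnl1 siRNA array at 2.5 h came close to the Cugbp1 siRNA array at 0 h. The change was −1.01 ± 0.09 at 2.5 h (adjusted p = 0.0001) and −1.46 ± 0.09 at 5 h (adjusted p = 5.53e-06). Between 2.5 h and 5 h it fell by 0.45 more (adjusted p = 0.0132). Without the control array at 2.5 h, the Mbnl1 array at 2.5 h or the Mbnl1 array at 5 h this late fall missed the threshold, with adjusted p up to 0.0737.

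Ankrd1, a nuclear and sarcomeric ankyrin repeat protein of muscle, had the smallest fall of these 5 targets at 2.5 h. Its intensity at 0, 2.5 and 5 h was 6355, 3358 and 1946 under Cugbp1 siRNA. Under Mbnl1 siRNA it was 8852, 6999 and 4249, and under control siRNA 8277, 5168 and 3215. At every time the Mbnl1 siRNA array was the highest and the Cugbp1 siRNA array the lowest. The 0 h and 2.5 h values overlapped, since the Mbnl1 siRNA array at 2.5 h was above the Cugbp1 siRNA array at 0 h. The change was −0.65 ± 0.11 at 2.5 h (adjusted p = 0.00236) and −1.38 ± 0.11 at 5 h (adjusted p = 1.74e-05), with a further −0.73 ± 0.11 between 2.5 h and 5 h (adjusted p = 0.00324). A line through the 3 times gave a half-life of 2.93 h under Cugbp1 siRNA, 4.72 h under Mbnl1 siRNA and 3.66 h under control siRNA. With equal ribosomal protein medians these were 2.59, 3.68 and 3.28 h. Each line rests on 1 array per time. The slope differed from control past the threshold in neither knockdown (limma, adjusted p = 0.443 for Cugbp1 siRNA and 0.421 for Mbnl1 siRNA).

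Amotl2 and Ajuba, which act back on the pathway, fell early. Amotl2 encodes an angiomotin that holds YAP at cell junctions. Its intensity at 0, 2.5 and 5 h was 454.1, 252.8 and 275.1 under Cugbp1 siRNA, 561.2, 304.0 and 300.1 under Mbnl1 siRNA, and 532.9, 266.8 and 286.0 under control siRNA. The later values were between 50.1% and 60.6% of the 0 h value in every arm and did not overlap with the 0 h values. The change was −0.91 ± 0.05 at 2.5 h (adjusted p = 4.94e-06) and −0.84 ± 0.05 at 5 h (adjusted p = 2.77e-06), and that between 2.5 h and 5 h was 0.07 (adjusted p = 0.345).

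Ajuba encodes a LIM protein that inhibits the LATS kinases. Its intensity at 0, 2.5 and 5 h was 625.7, 234.6 and 236.2 under Cugbp1 siRNA, 756.7, 275.9 and 223.7 under Mbnl1 siRNA, and 601.4, 269.5 and 152.8 under control siRNA. The last of these lies below the filter value of 167.1. Of the 2.5 h value, 100.7% was left at 5 h under Cugbp1 siRNA, 81.1% under Mbnl1 siRNA and 56.7% under control siRNA, single-array values that no test of the slopes separated. The change was −1.34 ± 0.13 at 2.5 h (adjusted p = 0.000123) and −1.71 ± 0.13 at 5 h (adjusted p = 1.37e-05). Between 2.5 h and 5 h it was −0.37 (adjusted p = 0.0813), which passed with equal ribosomal protein medians (−0.49, adjusted p = 0.00467) and without the Cugbp1 array at 5 h (adjusted p = 0.013).

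Lats2, the kinase that restrains YAP and is itself a YAP target, showed a small change. At 0, 2.5 and 5 h its intensity was 1040, 964.4 and 976.9 under Cugbp1 siRNA, 1105, 1003 and 1013 under Mbnl1 siRNA, and 930.7, 741.6 and 684.9 under control siRNA. At 5 h 94.0% was left under Cugbp1 siRNA and 91.7% under Mbnl1 siRNA, against 73.6% under control siRNA, so the loss was largest in the control arm. It fell by 0.19 at 2.5 h (adjusted p = 0.0427) and by 0.22 at 5 h (adjusted p = 0.0177). With equal ribosomal protein medians Lats2 stood at −0.30 (adjusted p = 0.00198) at 2.5 h and −0.45 (adjusted p = 3.23e-05) at 5 h, where the median gene stood at −0.08 and −0.19. As deposited, single arrays decided both calls: at 2.5 h the call was lost without the control array at 0 h or without any one of the 3 arrays at 2.5 h (adjusted p up to 0.139), and at 5 h without the control array at 0 h or at 5 h (up to 0.0764).

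Axl, a receptor tyrosine kinase, showed only small changes. Its intensity at 0, 2.5 and 5 h was 5365, 5679 and 5765 under Cugbp1 siRNA, 4872, 5137 and 5450 under Mbnl1 siRNA, and 5716, 5884 and 6359 under control siRNA. The rise at 5 h was 0.14 ± 0.04 (adjusted p = 0.00829). It turned to −0.09 (adjusted p = 0.222) when arrays were scaled to equal ribosomal protein medians, which took the median of all genes at 5 h from 0.035 to −0.193. Under both scalings Axl lay above the median gene.

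The 3 factor genes did not change past the threshold at 2.5 h or 5 h. Yap1 ranged from 1429 to 1552 under Cugbp1 siRNA, from 1354 to 1399 under Mbnl1 siRNA and from 1420 to 1448 under control siRNA. Wwtr1 ranged from 2009 to 2243 under Cugbp1 siRNA, from 2007 to 2125 under Mbnl1 siRNA and from 1932 to 2070 under control siRNA. Neither gene had an array far from the rest. At 5 h the change was 0.03 for Yap1 (adjusted p = 0.553) and 0.10 for Wwtr1 (adjusted p = 0.066). Tead1 differed by −0.10 at 5 h (adjusted p = 0.147); the probe set used gave 2677, 2710 and 2754 under Cugbp1 siRNA, 2314, 2294 and 2114 under Mbnl1 siRNA, and 2609, 2702 and 2260 under control siRNA. Its other probe set ranged from 2374 to 2504 under Cugbp1 siRNA, from 2083 to 2198 under Mbnl1 siRNA and from 2290 to 2366 under control siRNA, without the low control value at 5 h. With equal ribosomal protein medians Yap1 stood at −0.20 (adjusted p = 0.00964) and Tead1 at −0.33 (adjusted p = 0.00106), against the median of −0.193 for all genes. Leaving out 1 array gave a call at 5 h for Wwtr1 (without the Mbnl1 array at 0 h, adjusted p = 0.0249) and for Tead1 (without the Cugbp1 array at 5 h, adjusted p = 0.018).

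**Figure D2:**
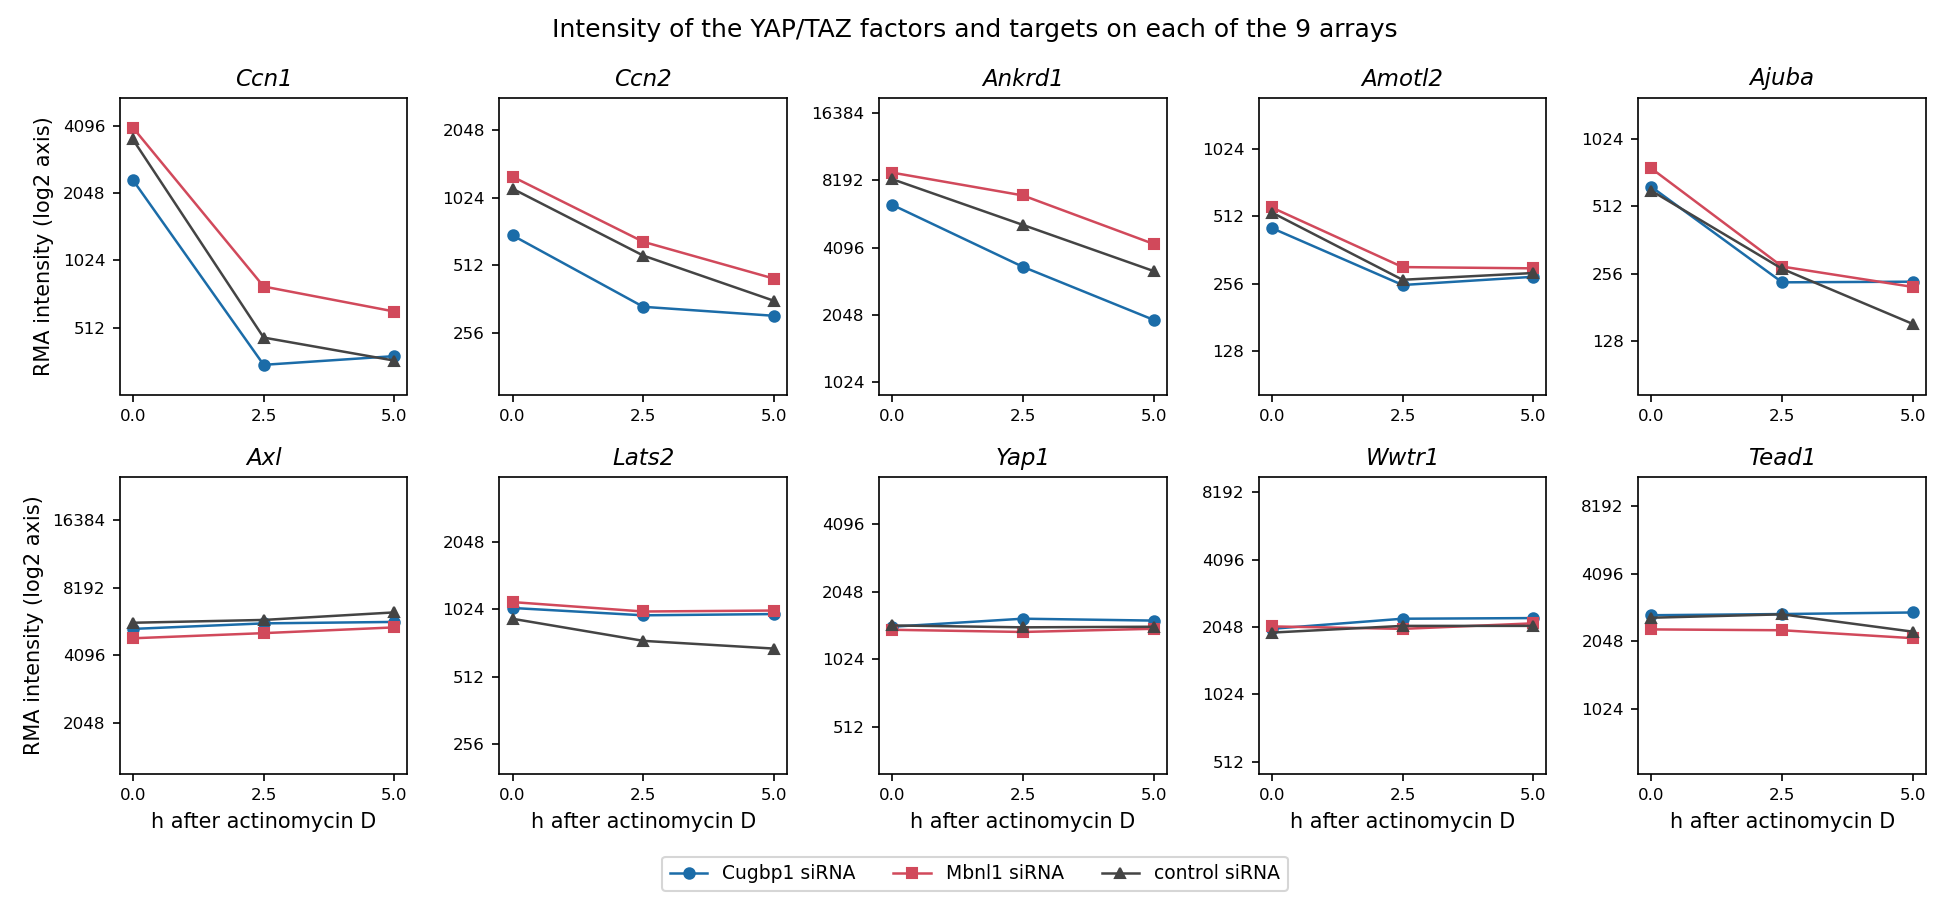
RMA intensity (log axis) of the 10 genes at 0, 2.5 and 5 h, with 1 point per array and 1 line per siRNA. Ccn1 drops the most, with a log2 change of −2.87 at 5 h, and the lines of Yap1 and Wwtr1 stay near level.

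Counted together, 6 of the 10 genes fell and 0 rose at 2.5 h, where 24.2% of all tested genes fell and 23.1% rose (47.4% in all). At 5 h 6 fell and 1 rose, where 32.8% of all genes fell and 35.6% rose (68.4% in all). The median change of the 7 targets at 5 h was −1.38 and that of the 3 factors 0.03, against 0.04 for all genes. Between 2.5 h and 5 h 2 of the 10 fell, Ccn2 and Ankrd1, and 0 rose, where 17.0% of all genes fell and 4.47% rose (21.4% in all). This count became 1 without the control or Mbnl1 array at 2.5 h or the Mbnl1 array at 5 h, and 4 without the Cugbp1 array at 5 h.

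**Figure D3:**
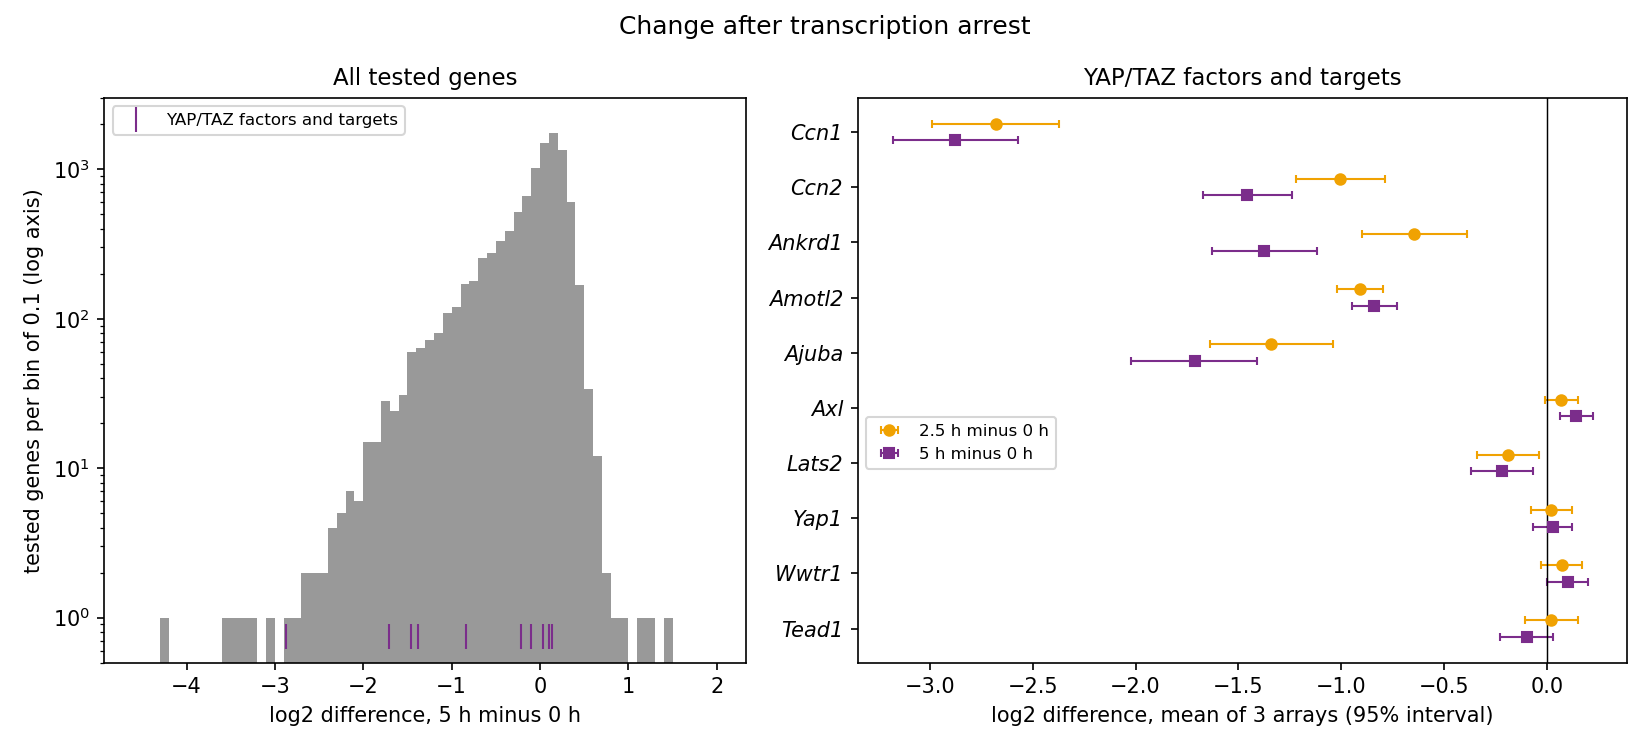
Left, histogram of the log2 difference between 5 h and 0 h over the 9864 tested genes (log axis), with the 10 genes as ticks. Right, log2 difference at 2.5 h and 5 h for each gene with its 95% interval. Ccn1 lies at −2.87 at 5 h and the 3 factors lie between −0.10 and 0.10.

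Ccn1, Ccn2 and Ankrd1, the targets most often used to read YAP/TAZ activity, had means on opposite sides of control in the knockdowns, below it with Cugbp1 siRNA and above it with Mbnl1 siRNA. Of these 6 differences 4 passed the test. Each mean joins the 0 h array with the arrays at 2.5 h and 5 h, taken after transcription was blocked. At 0 h alone the log2 differences of Ccn1, Ccn2 and Ankrd1 from control were 0.18, 0.18 and 0.10 under Mbnl1 siRNA (SD over all genes 0.32). Under Cugbp1 siRNA they were −0.60, −0.69 and −0.38 (SD over all genes 0.17). Over the 3 times Ccn2 was 1.47-fold lower under Cugbp1 siRNA than under control siRNA (log2 difference of means over 3 arrays −0.56 ± 0.09, SE, adjusted p = 0.0067) and Ankrd1 was 1.49-fold lower (−0.58 ± 0.11, adjusted p = 0.0106). Under Mbnl1 siRNA Ccn1 was 1.47-fold higher than under control siRNA (0.55 ± 0.13, adjusted p = 0.00831) and Ankrd1 was higher by 0.31 ± 0.11 (adjusted p = 0.0408). Both comparisons use the same 3 control arrays, so they are not independent of each other. Markers shifted beside these results. Under Cugbp1 siRNA Cd68 was higher by 0.24 (adjusted p = 0.00383) and the myoblast gene Cdh15 by 0.28 (adjusted p = 0.0049), while Myf5 was lower (−0.17, adjusted p = 0.0267); Myod1 (0.11), Des (−0.08) and Cdh1 (−0.09) did not pass. Under Mbnl1 siRNA Cd68 was higher by 1.15 and Cdh1 by 1.26. Of the 4 myoblast genes Myod1 and Cdh15 were lower there (−0.58 each), and Myf5 (0.00) and Des (−0.06) did not pass. Ptprc and Epcam lay under the filter in every arm. The part of these shifts in the results was not tested.

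Direct comparison of the knockdowns leaves the control arrays out of the difference. Under Mbnl1 siRNA, Ankrd1 was higher than under Cugbp1 siRNA by 0.89 ± 0.11 (adjusted p = 0.000284), Ccn1 by 0.87 ± 0.13 (adjusted p = 0.000901) and Ccn2 by 0.80 ± 0.09 (adjusted p = 0.000233). Counted from the largest rise, they ranked 98th, 102nd and 135th of the 9864 genes. Amotl2 was higher as well, by 0.23 ± 0.05 (adjusted p = 0.00402). These 4 calls held without any one of the 9 arrays. At 0 h Ccn2 was already at 182.8%, Ccn1 at 171.4% and Ankrd1 at 139.3% of its Cugbp1 siRNA value in the Mbnl1 siRNA cells.

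The difference from control varied over time. Ccn1 under Cugbp1 siRNA was at 65.9%, 75.5% and 104.7% of control at 0, 2.5 and 5 h, and under Mbnl1 siRNA at 112.9%, 169.1% and 165.7%. Under Cugbp1 siRNA it was thus below control at 0 h and 2.5 h but not at 5 h, and its mean difference of −0.31 ± 0.13 missed the threshold (adjusted p = 0.143). Ccn2 was at 61.8%, 59.1% and 85.7% under Cugbp1 siRNA and at 113.1%, 115.3% and 125.6% under Mbnl1 siRNA, where the mean of 0.24 also missed it (adjusted p = 0.0637). Ankrd1 was at 76.8%, 65.0% and 60.5% under Cugbp1 siRNA and at 106.9%, 135.4% and 132.2% under Mbnl1 siRNA. Of all tested genes, 1.4 to 1.95% differed from control by more than 0.5 (log2) at a given time under Cugbp1 siRNA and 10.1 to 12% under Mbnl1 siRNA.

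Lats2 was higher under both knockdowns. It stood at 111.7%, 130.0% and 142.6% of control under Cugbp1 siRNA (0.35 ± 0.07, adjusted p = 0.00992) and at 118.7%, 135.3% and 148.0% under Mbnl1 siRNA (0.42 ± 0.07, adjusted p = 0.00103). The 2 knockdowns differed from each other by 0.07 (adjusted p = 0.418). In both knockdowns the excess over control was larger at the later times.

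The other targets and the factors differed less. Axl was lower under Mbnl1 siRNA (−0.22 ± 0.04, adjusted p = 0.00123), at 85.2%, 87.3% and 85.7% of control, and differed by −0.09 under Cugbp1 siRNA (adjusted p = 0.103). Tead1 was lower under Mbnl1 siRNA (−0.17 ± 0.06, adjusted p = 0.0331). Amotl2 (−0.12 under Cugbp1 siRNA, 0.11 under Mbnl1 siRNA) and Ajuba (0.16 under Cugbp1 siRNA, 0.31 under Mbnl1 siRNA) did not pass against control. Neither did Yap1 (0.07 under Cugbp1 siRNA, −0.05 under Mbnl1 siRNA) or Wwtr1 (0.09 under Cugbp1 siRNA, 0.03 under Mbnl1 siRNA). Between the knockdowns Yap1 was lower under Mbnl1 siRNA (−0.12, adjusted p = 0.0373), as were Axl (−0.12, adjusted p = 0.0188) and Tead1 (−0.28 ± 0.06, adjusted p = 0.00349). With equal ribosomal protein medians the calls of Yap1 (adjusted p = 0.0943) and Axl (adjusted p = 0.0944) between the knockdowns were lost, as was that of Tead1 under Mbnl1 siRNA (adjusted p = 0.0758). Ccn2 (0.24, adjusted p = 0.0478) and Ajuba (0.31, adjusted p = 0.0387) then gained a call under Mbnl1 siRNA.

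**Figure D4:**
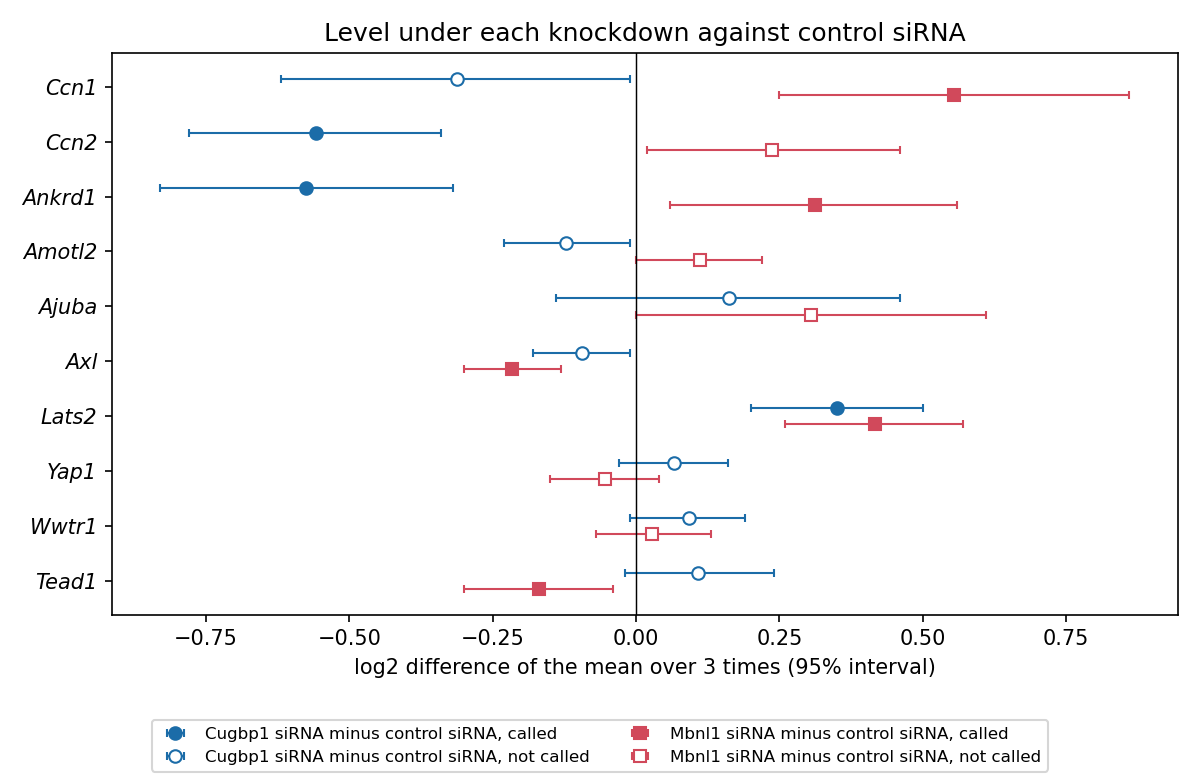
Log2 difference from control siRNA of the mean over 3 times, with 95% intervals, for Cugbp1 siRNA (circles) and Mbnl1 siRNA (squares). Filled symbols passed an adjusted p of 0.05. Ccn1, Ccn2, Ankrd1 and Amotl2 lie left of 0 for Cugbp1 siRNA and right of it for Mbnl1 siRNA, and Lats2 lies right of it for both.

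In counts, 3 of the 10 genes were called under Cugbp1 siRNA (1 higher, 2 lower), where 10.5% of all genes were higher and 8.67% lower (19.2% in all). Under Mbnl1 siRNA 5 were called (3 higher, 2 lower), where 24.0% of all genes were higher and 31.0% lower (55.0% in all). Between the knockdowns 7 were called (4 higher, 3 lower under Mbnl1 siRNA), where 23.0% of all genes were higher and 33.4% lower (56.4% in all). The shares called in the comparisons with Mbnl1 siRNA are near those of all genes, so these counts are no result about the pathway. Single arrays decided several calls. Without the control or the Cugbp1 array at 2.5 h, Ankrd1 and Lats2 were no longer called under Cugbp1 siRNA (adjusted p up to 0.0644 and 0.0586), which left 1 call. Under Mbnl1 siRNA, Ankrd1 stayed called in 3 of 9 leave-outs, those of the Cugbp1 arrays at 0 h and 5 h and the Mbnl1 array at 0 h (adjusted p up to 0.168). Tead1 lost its call without any one of the 3 Mbnl1 arrays or the control array at 0 h or 2.5 h (up to 0.154). Ccn2 and Ajuba gained a call there without the Cugbp1 array at 5 h, and Ajuba also without the control array at 2.5 h (adjusted p down to 0.00361 and 0.0182). Between the knockdowns, Axl lost its call without the Cugbp1 or the Mbnl1 array at 0 h or 2.5 h (up to 0.0945), and Yap1 kept it only without the control or the Cugbp1 array at 0 h (up to 0.179 otherwise).

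Whether the knockdowns changed the decay of these mRNAs was asked by comparing the hourly slopes of log2 intensity. None of the 10 genes was called under Cugbp1 siRNA (0.00% of all genes, limma, lowest adjusted p 0.32, 3 at an unadjusted p under 0.05) or under Mbnl1 siRNA (0.0203% of all genes, lowest adjusted p 0.176, 2 at an unadjusted p under 0.05). Over all genes 1129 and 1361 had an unadjusted p under 0.05. The largest slope differences under Cugbp1 siRNA were those of Ccn1 (0.134 ± 0.044 per h, SE), Ajuba (0.114 ± 0.054), Ccn2 (0.094 ± 0.033) and Lats2 (0.071 ± 0.016), and under Mbnl1 siRNA those of Ccn1 (0.111 ± 0.044) and Lats2 (0.064 ± 0.016). A positive value means a shallower loss than under control siRNA. With 1 array left out, the slope difference under Cugbp1 siRNA ranged from 0.02 to 0.25 for Ccn1, from −0.08 to 0.30 for Ajuba, from −0.02 to 0.21 for Ccn2 and from 0.06 to 0.09 for Lats2. Under Mbnl1 siRNA it ranged from −0.04 to 0.26 for Ccn1 and from 0.05 to 0.08 for Lats2. Over these leave-outs Lats2 alone of these kept its sign in both knockdowns, and its slope difference was called in 0 of 9 in each. With equal ribosomal protein medians the slope difference of Lats2 was 0.06 under Cugbp1 siRNA and 0.04 under Mbnl1 siRNA, neither of them called. Ankrd1 had −0.069 under Cugbp1 siRNA and 0.061 under Mbnl1 siRNA. Without the Mbnl1 array at 2.5 h Ccn1 was called under Mbnl1 siRNA (adjusted p = 0.0457).

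Genes around the pathway were read from 5 lists. Of 24 genes of the Hippo kinase cascade and its upstream regulators, 20 were tested, and at 5 h 6 rose and 6 fell (median −0.04; 35.6% of all genes rose and 32.8% fell). The FERM protein gene Frmd6 fell by 0.96, Limd1, a LIM protein like Ajuba, by 0.60 and the kinase gene Taok2 by 0.44. Scaling to equal ribosomal protein medians gave 0 higher and 14 lower, at a median of −0.27 against −0.19 for all genes. Under Cugbp1 siRNA 3 were higher and 3 lower, where 10.5% of all genes were higher and 8.67% lower: Stk38, a relative of the LATS kinases, was higher by 0.68 ± 0.08 (adjusted p = 0.00116), while Mob1b, a LATS cofactor, was lower (−0.49 ± 0.04, adjusted p = 0.000164), and so was Amot, another angiomotin (−0.45 ± 0.05). Under Mbnl1 siRNA 6 were higher and 5 lower, 11 of 20, which is near the 55.0% called among all genes (24.0% higher, 31.0% lower). Stk38 stood at 0.74 ± 0.08 (adjusted p = 0.000112), Stk38l at 0.35 (called in 5 of 9 leave-outs) and Mob1a at −0.29. Stk38 was thus higher than the shared control arrays in both knockdowns, as Lats2 was. The counts under Cugbp1 siRNA became 1 higher and 2 lower under equal ribosomal protein medians, and the number higher was also 1 without the Cugbp1 array at 2.5 h.

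Of 7 other TEAD and Vgll genes 6 were tested. At 5 h 4 fell and 1 rose (median −0.21), where 32.8% of all genes fell and 35.6% rose. The TEAD cofactor gene Vgll4 (−0.75 ± 0.06) and Tead4 (−0.73 ± 0.05) led the falls, while Tead1 did not pass. Equal ribosomal protein medians gave 5 lower and 0 higher (median −0.44). Under Cugbp1 siRNA Vgll4 (0.24) and Tead2 (0.16) were higher and 0 were lower (10.5% and 8.67% of all genes). Neither was called with equal ribosomal protein medians or without the Cugbp1 array at 2.5 h. With 1 array left out, Vgll4 kept its call in 4 of 9 fits and Tead2 in 5 of 9 (adjusted p up to 0.149 and 0.107). Under Mbnl1 siRNA Tead4 was higher (0.30 ± 0.05) and Tead2 lower (−0.24 ± 0.04), 2 of 6 against 55.0% of all genes called.

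Of 16 other YAP/TAZ targets 15 were tested, and their directions were mixed. At 5 h 8 fell and 3 rose (median −0.15), where 32.8% of all genes fell and 35.6% rose (68.4% in all), with the tissue factor gene F3 at −1.74 ± 0.06, the stress gene Gadd45a at −1.25 ± 0.07 and the forkhead factor gene Foxf2 at −1.20 ± 0.06. Under equal ribosomal protein medians 11 were lower and 0 higher. Under Cugbp1 siRNA 1 was higher, Gadd45a (0.45 ± 0.07), and 2 were lower, Nt5e (−0.27) and Rbms3 (−0.19), 3 of 15 against 19.2% of all genes. Both lower calls were lost without the Cugbp1 array at 2.5 h. Over all leave-outs Nt5e kept its call in 5 of 9 and Rbms3 in 4 of 9 (adjusted p up to 0.0781 and 0.102). Under Mbnl1 siRNA 7 were higher and 4 lower (median 0.11), where 24.0% of all genes were higher and 31.0% lower (55.0% in all), with Crim1 at 0.61 ± 0.05, Gadd45a at 0.58 ± 0.07 and the growth factor gene Tgfb2 at 0.57 ± 0.04. Between the knockdowns 7 were higher and 3 lower under Mbnl1 siRNA, where 23.0% of all genes were higher and 33.4% lower (56.4% in all), led by Tgfb2 (0.61), Crim1 (0.56) and Igfbp3 (0.49). With equal ribosomal protein medians 5 were higher and 4 lower under Mbnl1 siRNA, and 5 higher and 3 lower between the knockdowns. With 1 array left out, the number higher ranged from 5 to 7 under Mbnl1 siRNA and from 4 to 7 between the knockdowns.

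Targets of SRF and its cofactor MRTF share cytoskeletal signals with YAP/TAZ, and 14 of 15 were tested. Under Cugbp1 siRNA 8 were lower and 0 higher (median −0.16), where 8.67% of all genes were lower and 10.5% higher, with the smooth muscle marker Tagln at −0.36 ± 0.07, Cnn2 at −0.25 ± 0.04 and Actg2 at −0.20 ± 0.04. This count fell to 2 with equal ribosomal protein medians (median −0.15) and to 1 without the Cugbp1 array at 2.5 h. Neither Tagln nor Actg2 was called without that array. Over all leave-outs Tagln kept its call in 7 of 9 and Actg2 in 5 of 9 (adjusted p up to 0.0621 and 0.0954). Under Mbnl1 siRNA 7 were higher and 4 lower (median 0.12), where 24.0% of all genes were higher and 31.0% lower, with the muscle actin gene Acta1 at 0.47 ± 0.07 and Srf itself at −0.36 ± 0.04. Between the knockdowns 9 were higher and 2 lower under Mbnl1 siRNA (median 0.25), where 23.0% of all genes were higher and 33.4% lower. At 5 h 8 of these genes rose and 2 fell as deposited (35.6% and 32.8% of all genes), a split that equal ribosomal protein medians turned to 1 and 5.

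Among 10 relatives and ligands of these genes only 5 were bright enough to test; Ccn3, Ccn6, Gas6, Ankrd2 and Ankrd23 were not. Under Mbnl1 siRNA 4 of the 5 were lower and 0 higher (median −0.40), where 31.0% of all genes were lower and 24.0% higher, led by Ccn4, a relative of Ccn1 and Ccn2 (−0.85 ± 0.11), Pros1, which encodes a ligand of the AXL receptor family (−0.48 ± 0.08), and the AXL relative Mertk (−0.40 ± 0.06). Ccn4 thus ran opposite to Ccn1 in that arm. Under Cugbp1 siRNA Mertk alone was called (−0.24; 19.2% of all genes were called), and it lost its call in 5 of 9 leave-outs (adjusted p up to 0.0975). At 5 h 1 rose, Pros1 (0.25, adjusted p = 0.0248), and 2 fell, Ccn4 by 0.95 and Mertk by 0.65, where 35.6% of all genes rose and 32.8% fell. Equal ribosomal protein medians gave 0 higher and 3 lower.

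As a description over the 9 arrays, the tested genes most like Ccn1 in their log2 values were 2310057M21Rik (Pearson r = 0.994), Dok1 (0.994) and Stk40 (0.993). Those most like Ccn2 were Cox11 (0.993), Fam83h (0.981) and Swt1 (0.981). For Ankrd1 they were Itga5 (0.994), Lsg1 (0.991) and Tesk2 (0.987). Itga5, an integrin subunit, had 3727, 2921 and 2425 under Cugbp1 siRNA, 4477, 3805 and 3200 under Mbnl1 siRNA, and 4170, 3441 and 2957 under control siRNA, the same order of arms at each time as Ankrd1. Itga5 was picked for its likeness to Ankrd1 over these arrays, so the shared order is no separate result. All points share the same 9 arrays and the same loss after transcription arrest.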

How the data were processed

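Total RNA of C2C12 cells was measured on 9 arrays, with a single array per siRNA and time. The authors made the values with RMA in Affymetrix Expression Console, per the submitters' processing notes, which name no version. The deposited table holds intensities, whose linear scale was inferred from their range, and they were turned into log2 values.

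Of 35556 probe sets, 21789 carry 1 gene symbol, 1621 several and 12146 none in the platform annotation. A gene was represented by its brightest probe set and tested if its mean log2 reached 7.385 (an intensity of 167.1), which is the 50th percentile over named probe sets. Levels and time changes came from limma 3.58.1 (R 4.3.3; lmFit, eBayes) with siRNA and time as factors, leaving 4 residual degrees of freedom. Slopes came from the same model plus a line in hours for each siRNA, leaving 2. Calls needed an adjusted p under 0.05 (Benjamini-Hochberg, 9864 genes). The fits were also run on simulated data with independent noise and known added changes. Those data lack any uneven behaviour of the siRNAs across the times, so that run cannot vouch for the p-values. Alternatives were equal ribosomal protein medians, other filters, averaged probe sets, an intensity trend and leaving out each array.

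The rule named the 10 genes, both siRNA targets, up to 3 of the largest called changes per list and comparison, and the 3 genes most correlated with each of Ccn1, Ccn2 and Ankrd1; marker genes are named as well. Members and lists were chosen with earlier results of these data known. Motif words are textbook words.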

Additional observations from a re-analysis of the deposited data

Results flagged for a closer look

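Yap1 moved from its 0 h value in opposite directions under Cugbp1 siRNA and under control siRNA at both later times. At 2.5 h its log2 change was 0.12 under Cugbp1 siRNA and −0.03 under control siRNA, and at 5 h it was 0.09 under Cugbp1 siRNA and −0.02 under control siRNA. Each value sets 1 array against 1 array, and the difference was not tested. With equal ribosomal protein medians Yap1 lay below its 0 h value in both arms at both times: the log2 change at 2.5 h was −0.06 under Cugbp1 siRNA and −0.08 under control siRNA, and at 5 h it was −0.13 under Cugbp1 siRNA and −0.18 under control siRNA.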

How the results depend on the processing

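No paired analysis was possible because each siRNA and time has 1 array and the labels carry no replicate numbers. Of the values of single genes of the pathway under settings that keep all arrays, 373 kept their status as called or not called. Another 13 gained a call, 12 lost one and 2 reversed. With 1 array left out, 676 kept their status, 9 gained and 35 lost a call. A change of sign with no call in either fit was counted as kept status, not as a reversal. With equal ribosomal protein medians such changes included those of Wwtr1 at 5 h (0.10 to −0.13) and of 4 genes at 2.5 h. The 4 were Axl (0.07 to −0.05), Yap1 (0.02 to −0.09), Wwtr1 (0.07 to −0.04) and Tead1 (0.02 to −0.09). Between 2.5 h and 5 h they included Amotl2 (0.07 to −0.05), Axl (0.07 to −0.04), Yap1 (0.01 to −0.11) and Wwtr1 (0.03 to −0.08). Some uncalled slope differences changed sign as well, among them those of Axl, Yap1 and Tead1 under Mbnl1 siRNA. The counted reversals came with equal ribosomal protein medians, at 5 h: Axl −0.09 and Yap1 −0.20. This setting moves every transcript of an array alike, and gave 234 genes higher and 5479 lower at 5 h, against 3514 and 3232 as deposited. It also gave 5 genes of the pathway called between 2.5 h and 5 h (2 as deposited; 4 with an intensity trend; 1 to 4 with 1 array left out). Under Mbnl1 siRNA 3 were called without a filter or with the filter at the 25th percentile (5 in the main setting; 3 to 7 with 1 array left out), and under Cugbp1 siRNA 1 to 3 with 1 array left out. Their slopes under Mbnl1 siRNA gave 0 to 1 calls. Over all genes, calls between 2.5 h and 5 h numbered 1141 without a filter (2113 in the main setting; 1019 to 2328 with 1 array left out). For the level under Cugbp1 siRNA they numbered 1056 with equal ribosomal protein medians and 969 without a filter (1894; 742 to 2027). Slope calls under Cugbp1 siRNA numbered 12 with equal ribosomal protein medians and 6 with an intensity trend (0 in the main setting). Under Mbnl1 siRNA they numbered 313 with equal ribosomal protein medians, 192 with a trend, 20 with averaged probe sets and 0 with either filter change (2; 0 to 203 with 1 array left out). The causes were not tested. Dim signal limits Ajuba at 5 h under control siRNA.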
